A study of Mus musculus with 49 samples.

Results

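The 10 genes described here build, load or switch on MHC class I molecules, and they were followed in mouse CD8+ T cells in which STAT5A or STAT5B could not be phosphorylated on the tyrosine that IL-2 signaling uses. The genes, B2m, H2-K1, H2-D1, H2-T23, Tap1, Tap2, Tapbp, Erap1, Nlrc5 and Calr, were taken by symbol from the 23992 symbols of the expression files, with the longest transcript for each. All 10 were measured and all 10 were among the 15566 genes tested. RNA-seq had been done on freshly isolated splenic CD8+ T cells of the strain labelled C57BL/6J, either at 0 hr or after 4, 24 or 48 hr in culture with human recombinant IL-2 at 500 IU/ml. There were 2 mouse lines. The groups labelled STAT5A compared WT cells with cells of knock-in (KI) mice carrying a tyrosine-to-phenylalanine STAT5A, and the groups labelled STAT5B did the same for STAT5B, which gave 16 groups of line, genotype and time with 3 libraries each. The KI alleles had been made by CRISPR/Cas9 in hybrid zygotes and backcrossed for 6 generations to C57BL/6J, the WT animals were littermates from heterozygous matings, and mice of both sexes were 8 to 24 weeks old. Each KI cell had the mutation throughout life, so that development in the mutant animal and the signal in culture cannot be told apart, and the WT cells at 24 and 48 hr differ from those at 0 hr by culture as well as by IL-2. A changed codon is not visible in gene counts, so the counts do not check the genotype labels.

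The third KI library of the STAT5A line at 4 hr had 1028515 reads on the transcripts used, 5.68% of its mapped reads, and was left out, which left 2 libraries in that group. The other 47 libraries had 17369112 to 60200653 such reads (median 41410666). Replicate 2 of the STAT5A WT cells at 4 hr also stood apart. It had the fewest reads of the 47, with 44.9% of its mapped reads on the transcripts, where the other 46 had 68.7% to 84.4%. Its B2m level was 9023, beside 2972 and 3140 in the other 2 libraries of its group, and its H2-D1 level was 608.6, beside 1061 and 1091. It was kept, and several 4 hr values of the STAT5A line that it moved are also given without it. Replicate 3 of the STAT5A WT cells at 0 hr had the most reads, and its Cd79a level, a B cell marker, was 29.9 beside 85.9 and 99.8 in the other 2 libraries of its group, while its Erap1 level was 45 beside 35.4 and 35.5. Levels here are TMM-normalised RPKM, reads per kilobase of transcript scaled to a common library size after the sizes were scaled by edgeR's trimmed mean of M values, so they can be compared between genes. Differences are log2 fold changes from edgeR's quasi-likelihood test on the read counts over all 47 libraries, with their SE. A gene passed where its Benjamini-Hochberg adjusted p over all genes tested was at most 0.05. The labels number the replicates but do not say whether they were separate mice, so p-values measure the spread between these libraries, which may be in part technical.

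A class I molecule is a heavy chain held together with beta2-microglobulin and a short peptide, and it shows the peptide to CD8+ T cells. H2-K1 and H2-D1 encode the classical heavy chains of this strain, H2-T23 encodes the nonclassical heavy chain Qa-1, and B2m encodes the light chain. Peptides cut by the proteasome are pumped into the endoplasmic reticulum (ER) by the transporter TAP1-TAP2, trimmed there by ERAP1, and loaded with the help of tapasin (Tapbp) and the lectin chaperone calreticulin (Calr). NLRC5 is the transactivator of class I genes. It has no DNA-binding domain of its own and acts through factors that sit on the conserved S, X and Y boxes of class I promoters. Interferon gamma is the best known inducer of the whole set. T cells express class I at high level themselves, as these libraries show.

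Of the 10 genes, 6 lie on chromosome 17, the chromosome of the mouse MHC: H2-K1, H2-D1, H2-T23, Tap1, Tap2 and Tapbp. B2m lies on chromosome 2 (122147687 to 122153082, plus strand, RefSeq, GRCm38.p6), Erap1 on chromosome 13, and Nlrc5 and Calr on chromosome 8. RefSeq windows from 250 bases before to 50 bases after the start were at hand for 8 of the 10, and the 250 upstream bases were searched on both strands. The STAT motif TTCNNNGAA (GAS) was in the windows of 0 of the 8, against 7.02% of 32851 windows of all genes. The core of the interferon-stimulated response element (ISRE), GAAA and GAAA with 2 bases between them, was in those of B2m and H2-T23, against 2.98% of all. The palindromic kB site of the class I enhancer, spelled by the first run of capitals in the H2-K1 sequence printed next, was in those of H2-K1 and H2-D1 and in 0.0304% of all, or 10 windows. The cyclic AMP-response half-site TGACG was in 4 members (H2-K1, H2-D1, B2m and Tap1) and 17.8% of all, and CCAAT was in 7 and in 33.8% of all. In H2-K1, H2-D1 and B2m, the letters TGACG are followed, on the strand of the gene, by ATTGG, the reverse complement of CCAAT, at a distance of 25 bases from start to start. This spacing was noticed after the search, and 18 of the 32851 windows (0.0548%) hold it. They include the windows of H2-K1, H2-D1 and B2m themselves and that of H2-M3. Genes outside the members and lists hold it too, such as Ghitm, Hspa14, Ibsp, Per1 and Slc8a3, so the spacing is not particular to class I genes. The stretches that hold these letters are shown because the classical heavy chains and the light chain share this arrangement. Capitals mark, in order, the kB site (H2-K1 and H2-D1) or the interferon-response core (B2m), then TGACG, then ATTGG.
H2-K1, chr17:34000354-34000463, minus strand: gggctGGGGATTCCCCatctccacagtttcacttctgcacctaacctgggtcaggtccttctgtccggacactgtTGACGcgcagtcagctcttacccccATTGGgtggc
H2-D1, chr17:35262918-35263027, plus strand: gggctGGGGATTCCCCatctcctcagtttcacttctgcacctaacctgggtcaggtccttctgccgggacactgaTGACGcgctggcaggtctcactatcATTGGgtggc
B2m, chr2:122147543-122147643, plus strand: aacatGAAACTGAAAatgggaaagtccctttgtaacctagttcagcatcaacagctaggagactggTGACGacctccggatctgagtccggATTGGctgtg
The H2-K1 and H2-D1 stretches are the same in 99 of 110 bases. A match is a match of letters and not a bound site, and binding at these sequences was not analysed here.

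Class I transcripts were abundant in every library. The 10 genes together took 0.857% to 1.3% of the reads of a library, with a median of 1.055%. B2m had the highest level, 2508 to 3990 in the 46 libraries other than the STAT5A WT 4 hr replicate that stands apart, with a median of 3034 over all 47. H2-K1 (median 1693) was above H2-D1 (1207) in every group by its median ratio, and the ratio of H2-K1 to H2-D1 ranged from 1.18 to 1.6 in the same 46 libraries. Below the heavy chains came Calr (median 319.9), H2-T23 (222.7), Tapbp (163.3), Tap1 (126.7), Tap2 (115.7), Nlrc5 (78.6) and Erap1 (45), in that order. H2-K1 and H2-D1 are close relatives, and the authors stated that they kept only uniquely mapped reads, so their levels leave out reads that could not be placed. The spread between groups was small. The highest group mean was between 1.52 times (H2-K1) and 2.33 times (H2-T23) the lowest. In the order of the 16 group means, only 2 (H2-K1) to 5 (H2-T23, Tapbp, Erap1 and Nlrc5) of the 15 pairs of neighbours differed by more than the larger of their SDs, so most neighbouring groups do not differ beyond their spread. STAT5A WT cells at 24 hr were the highest group for H2-T23, Tap1, Tap2, Tapbp and Nlrc5.

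**Figure D1:**
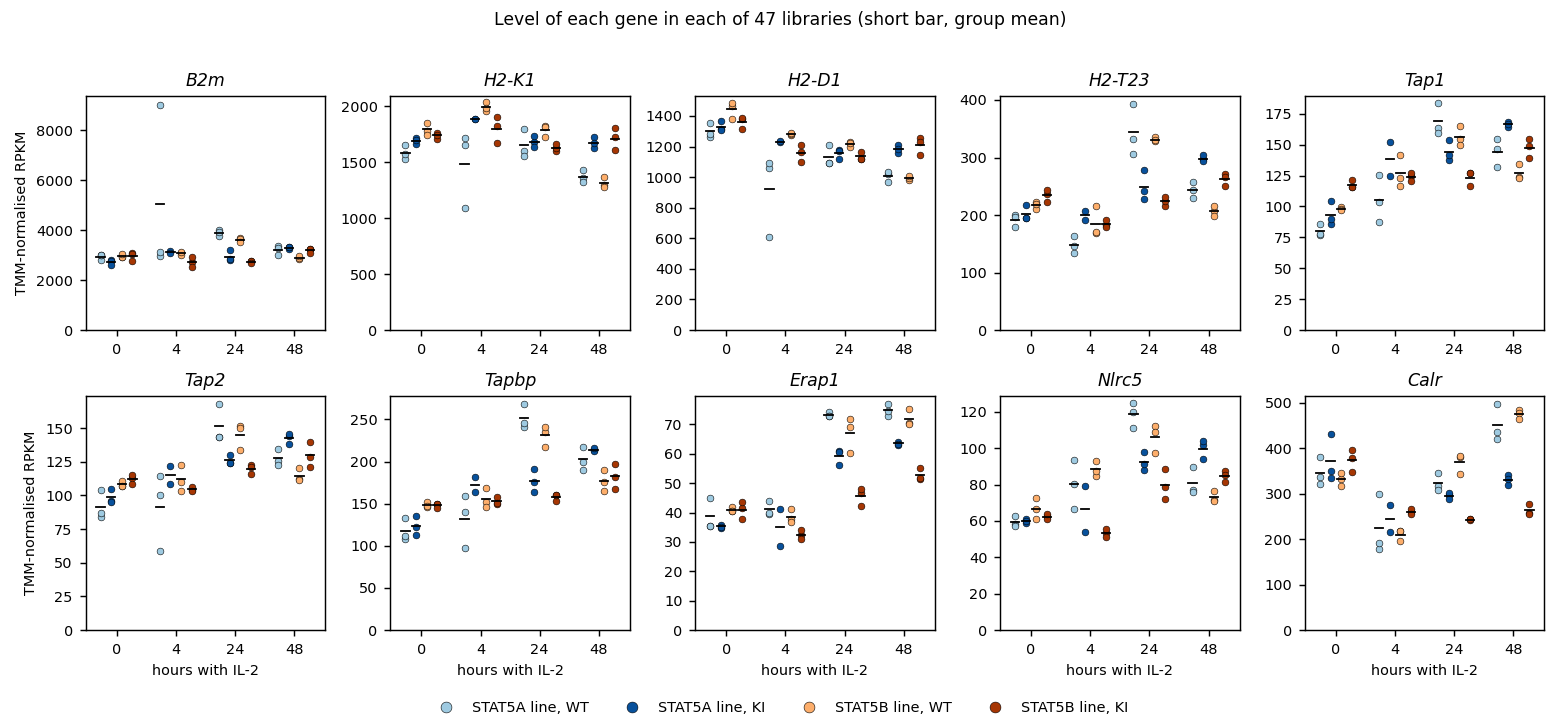
Level of each of the 10 genes (y axis, TMM-normalised RPKM from 0) against hours with IL-2 (x axis), 1 point per library, colored by line and genotype, with a short bar at each group mean. The WT points of both lines rise at 24 hr for H2-T23, Tap1, Tap2, Tapbp, Erap1 and Nlrc5, and 1 STAT5A WT library at 4 hr lies far from its group for B2m (9023) and H2-D1 (608.6).

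The first question was how IL-2 moves these genes in WT cells. The loading genes and Nlrc5 rose, the classical heavy chains were lower by 48 hr, and calreticulin fell before it rose. At 24 hr, 6 members were higher than at 0 hr in both lines: Tap1, Tap2, Tapbp, Erap1, Nlrc5 and H2-T23. A further member, H2-D1, was lower (−0.25 ± 0.10) in the STAT5B line, a call that was lost without any 1 of the 6 libraries. In these comparisons 30.1% (STAT5A) and 29.5% (STAT5B) of all genes passed as higher, and 28.9% and 30.1% as lower. At 4 hr 3 members were higher and 3 lower in STAT5A cells (29.5% and 28.9% of all genes), and 2 and 2 in STAT5B cells (25.1% and 24.5%). At 48 hr 7 were higher and 2 lower in STAT5A cells (34.1% and 37.7%), and 4 and 2 in STAT5B cells (33.1% and 36.8%). At 24 hr the median log2 fold change of the 10 was 0.78 and 0.52 in the STAT5A and STAT5B lines, beside −0.04 for all genes in both.

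Tap1, a subunit of the peptide transporter, had levels of 76.9, 77.9 and 85.7 at 0 hr and 163.5, 159.1 and 183.7 at 24 hr in STAT5A WT cells. The groups did not overlap, and the log2 fold change was 1.07 ± 0.09 (SE, adjusted p = 1.4e-12). In STAT5B WT cells it went from 99.4, 98.2 and 97.4 to 154.8, 164.9 and 149.7 (log2 fold change 0.67 ± 0.09). Tapbp, whose product tapasin bridges TAP and the empty heavy chain, rose from 108.4, 111.7 and 132.5 to 240.8, 245.8 and 268.6 in the STAT5A line. That was the largest of the 24 hr changes, 1.10 ± 0.10, and it was 0.64 ± 0.10 in the STAT5B line. Nlrc5 rose from 58.4, 57.3 and 62.9 to 119.6, 111.1 and 124.7 in the STAT5A line (0.99 ± 0.10), and by 0.67 ± 0.10 in the STAT5B line. It had already risen at 4 hr, by 0.43 ± 0.10 and 0.41 ± 0.10, as had Tap1, by 0.40 ± 0.09 and 0.37 ± 0.09. Erap1 rose by 0.92 ± 0.09 and 0.71 ± 0.09 at 24 hr and was, at 48 hr, 0.95 ± 0.09 and 0.81 ± 0.09 above 0 hr. Tap2 rose by 0.73 ± 0.12 and 0.42 ± 0.12 at 24 hr. By 48 hr the changes of Tap1, Tapbp and Nlrc5 from 0 hr were 0.85, 0.78 and 0.44 in STAT5A cells. In STAT5B cells that of Nlrc5 was 0.13 and did not pass.

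H2-T23 was lower at 4 hr and higher at 24 hr. At 4 hr it was lower by 0.38 ± 0.08 and 0.24 ± 0.08 on the log2 scale, and at 24 hr higher by 0.84 ± 0.08 and 0.61 ± 0.08, in the STAT5A and STAT5B lines. Its 4 hr groups overlapped in the STAT5B line, where the call passed in 9 of 15 alternatives and was lost without any 1 of 4 of the 6 libraries. The classical heavy chains took another course. H2-K1 had levels of 1777, 1850 and 1746 at 0 hr and 1291, 1273 and 1363 at 48 hr in STAT5B WT cells, and the groups did not overlap. The log2 fold change was −0.45 ± 0.09 in the STAT5B line and −0.21 ± 0.09 in the STAT5A line, where the call passed in 7 of 15 alternatives (−0.24 to −0.00) and was lost without any 1 of 4 of the 6 libraries. H2-D1 fell by 0.54 ± 0.10 and 0.37 ± 0.10 in the STAT5B and STAT5A lines. Each call passed in 13 of 15 alternatives (−0.55 to −0.36 and −0.39 to −0.16). The median over all genes was itself −0.13 and −0.12 in these 48 hr comparisons, so relative to it the H2-K1 change of the STAT5A line was small. Calr, the ER chaperone, had levels of 333.2, 317.3 and 345.9 at 0 hr, 217.3, 217.1 and 195.6 at 4 hr, and 484.7, 477.4 and 465.6 at 48 hr in STAT5B WT cells. It was lower at 4 hr by 0.66 ± 0.11 and 0.63 ± 0.11 and higher at 48 hr by 0.52 ± 0.11 and 0.38 ± 0.11, in the STAT5B and STAT5A lines. The 4 hr change of Calr in the STAT5A line ran from −0.95 to −0.42 over 15 alternatives and passed in 14. Among the STAT5A WT libraries at 4 hr, 1 had a Calr level of 300.6, beside 178.3 and 192.6.

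B2m moved with the loading genes at 24 hr in its values but did not pass. It was 2910, 2942 and 3034 at 0 hr and 3698, 3651 and 3517 at 24 hr in the STAT5B line, with no overlap, and the log2 fold change was 0.29 ± 0.19 (adjusted p = 0.19). In the STAT5A line it was 0.41 ± 0.19 (adjusted p = 0.063). The fit gives B2m 1 dispersion over all libraries, the one with a level of 9023 included. With that library and replicate 3 of the STAT5A WT cells at 0 hr left out, a choice made after seeing the data, the 24 hr changes were 0.42 (adjusted p = 2.3e-07) and 0.29 (adjusted p = 1.5e-05). At 4 hr in the STAT5A line B2m passed as higher, 0.78 ± 0.19, through that library alone, and the change was 0.07 without the pair. In the same comparison Tap2 went from −0.006 to 0.33, Tapbp from 0.17 to 0.44 and H2-D1 from −0.50 to −0.29, and all 3 passed without the pair.

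**Figure D2:**
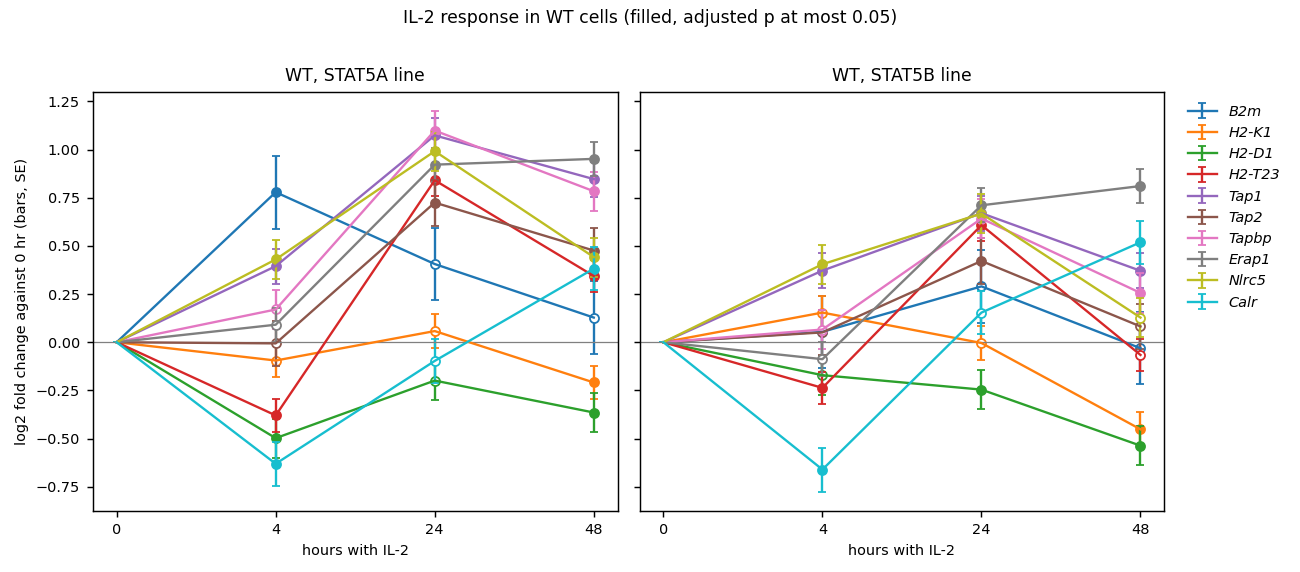
Log2 fold change against 0 hr (y axis, bars are SE) of the 10 genes in WT cells at 4, 24 and 48 hr with IL-2 (x axis, times evenly spaced), for the STAT5A and the STAT5B line, with filled points where the adjusted p was at most 0.05. Tapbp, Tap1, Nlrc5 and Erap1 are the uppermost 4 at 24 hr in the STAT5A line (1.10 to 0.92), and Calr is lowest at 4 hr in both lines (−0.63 and −0.66 in the STAT5A and STAT5B lines).

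The next question was what changed when STAT5A or STAT5B could not be tyrosine-phosphorylated. At 0 hr, 0 members passed in the STAT5A line by edgeR's test, where 3.44% of all genes did, and 1 passed in the STAT5B line, Tap1 (0.26 ± 0.09), where 22.9% of all genes did. At an unadjusted p under 0.05, Tap1 was also higher in the STAT5A line (0.22 ± 0.09, adjusted p = 0.19), and DESeq2 passed 0 members there. The Tap1 call of the STAT5B line was lost with any 1 of its 6 libraries left out. Tap1 in STAT5B cells had levels of 99.4, 98.2 and 97.4 (WT) and 117.6 ± 2.94 (SD, n = 3; KI), with no overlap.

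Nlrc5 had the largest difference of the 10 at 4 hr in the STAT5B line. Its levels were 84.6, 87.5 and 93.1 in STAT5B WT cells and 53.3, 51 and 55.4 in STAT5B KI cells. The KI values lay below the 0 hr values of WT cells (72.8, 66.3 and 61), and the log2 fold change was −0.73 ± 0.10 (adjusted p = 9.9e-07). It passed under all 15 alternative analyses, between −0.74 and −0.61. Erap1 (−0.25 ± 0.09) and Calr (0.31 ± 0.11) also passed, though each call was lost without any 1 of 5 of the 6 libraries, and 27.3% of all genes did in this comparison. Of the genes that NLRC5 is known to drive, H2-K1 (−0.15 ± 0.09), H2-D1 (−0.15 ± 0.10), B2m (−0.18 ± 0.19), Tap1 (−0.04 ± 0.09) and Tapbp (−0.02 ± 0.10) did not pass. Their intervals reached down to −0.33, −0.35, −0.56, −0.22 and −0.23, so a difference as large as that of Nlrc5 lies outside all 5. Without both libraries that stand apart, 6 members passed at this time, B2m (−0.17, adjusted p = 0.01), H2-K1 (−0.14, adjusted p = 0.026) and H2-D1 (−0.15, adjusted p = 0.012) among them.

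The 4 hr comparison of the STAT5A line rests on few and uneven libraries. In the main fit 6 members passed, against 24.6% of all genes: H2-T23, H2-D1, Tap1, Tapbp and H2-K1 higher (0.43 to 0.35) and B2m lower (−0.70 ± 0.22). Without replicate 2 of the WT cells the B2m difference was 0.03, those of H2-K1, Tap1 and Tapbp were 0.17, 0.27 and 0.21 and did not pass, and those of H2-D1 and H2-T23 were 0.19 and 0.37 and passed. In that fit Nlrc5 (−0.38) and Calr (0.41) passed as well. Fitted with the 2 groups alone 0 members passed. For Nlrc5 the 2 KI libraries had 54.1 and 79.2 and the WT libraries 93.7, 66.5 and 80.4, so the groups overlapped.

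At 24 hr all members that passed were lower in KI cells. In the STAT5B line 6 members passed, all lower (26.3% of all genes passed as lower): Calr, H2-T23, Erap1, Tapbp, Nlrc5 and Tap1. In the STAT5A line 4 passed, all lower (9.01% of all genes did): Tapbp, H2-T23, Nlrc5 and Erap1. Without replicate 2 of the STAT5A KI cells, Nlrc5 (−0.33, adjusted p = 0.054) and Erap1 (−0.27, adjusted p = 0.063) no longer passed, and each passed in 12 of 15 alternatives. H2-T23 had levels of 328.4, 334.8 and 329.8 in STAT5B WT cells and 215.5, 224.5 and 231.1 in STAT5B KI cells, close to the 0 hr values of the WT cells (210.2, 222.7 and 218.4). The log2 fold change was −0.57 ± 0.08 (adjusted p = 6.1e-07) and, in the STAT5A line, −0.46 ± 0.08. Tapbp was 235.4, 241.2 and 217.7 in STAT5B WT cells and 157.7 ± 4.07 (SD, n = 3) in KI cells (−0.55 ± 0.10), and differed by −0.51 ± 0.10 in the STAT5A line. Every KI value of both genes was below every WT value of its line.

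Erap1 was 69.1, 60.3 and 71.8 in STAT5B WT cells and 46.5, 48 and 42.1 in KI cells (−0.56 ± 0.09), with −0.31 ± 0.09 in the STAT5A line. Nlrc5 was lower by 0.41 ± 0.10 and 0.36 ± 0.10, and Tap1 by 0.34 ± 0.09 in the STAT5B line. Calr was 381.9, 383.5 and 343.1 in STAT5B WT cells and 243.7, 242.9 and 243.8 in KI cells (−0.60 ± 0.11), and it did not pass in the STAT5A line (−0.13 ± 0.11). The classical heavy chains did not pass. H2-K1 differed by −0.13 ± 0.09 and 0.03 ± 0.09 and H2-D1 by −0.10 ± 0.10 and 0.03 ± 0.10 in the STAT5B and STAT5A lines, with 95% confidence intervals within −0.31 to 0.24. B2m was 3698, 3651 and 3517 in STAT5B WT cells and 2748, 2768 and 2664 in KI cells. It did not overlap between genotypes in either line, yet its differences of −0.41 ± 0.19 (STAT5B) and −0.40 ± 0.19 (STAT5A) did not pass (adjusted p = 0.069 and 0.14). Without the pair of libraries that stand apart both were −0.41 and passed (adjusted p = 6e-08 and 1.2e-06). In all, 10 members did not overlap between genotypes in the STAT5B line and 8 in the STAT5A line, where 66.7% and 41% of all genes did not.

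At 48 hr the heavy chains H2-K1 and H2-T23 were higher in KI than WT cells in both lines, and Calr and Erap1 were lower. In the STAT5B line 6 members passed, where 63.6% of all genes did: H2-K1, H2-T23, H2-D1 and Tap1 higher (33.1% of all genes passed as higher) and Calr and Erap1 lower (30.5%). In the STAT5A line 5 passed, where 44.3% of all genes did: H2-K1, H2-T23 and Nlrc5 higher (21.5%) and Calr and Erap1 lower (22.8%). The counts of both lines are near these shares, so they do not set the members apart from other genes. H2-K1 was 1291, 1273 and 1363 in STAT5B WT cells and 1801, 1725 and 1605 in KI cells. The groups did not overlap, and the difference was 0.39 ± 0.09 (adjusted p = 0.00024), with 0.29 ± 0.09 in the STAT5A line. H2-T23 was 207.5, 198.9 and 215.8 in STAT5B WT cells and 270.5, 265.7 and 250.8 in KI cells (0.34 ± 0.08), and differed by 0.29 ± 0.08 in the STAT5A line, opposite in sign to 24 hr in both lines. H2-D1 was higher by 0.28 ± 0.10 in the STAT5B line and by 0.23 ± 0.10 in the STAT5A line, where it did not pass. The median of all genes was 0.10 in the STAT5B line and 0.04 in the STAT5A line, and relative to it the higher values are smaller by that much. In the STAT5B line the Tap1 call was lost without any 1 of the 6 libraries and the H2-D1 call without any 1 of 5 of them. For STAT5A, the Nlrc5 call passed in 8 of 15 alternatives and was lost without any 1 of 4 libraries (replicates 2 and 3 of WT and of KI cells). The H2-K1 call was lost without WT replicate 3 (0.21) or KI replicate 2 (0.21), the H2-T23 call without WT replicate 2 (0.21) and the Erap1 call without WT replicate 1 (−0.21). Of 15 alternatives, H2-K1 passed in 11 (STAT5A) and 14 (STAT5B), and H2-T23 in 13 and 14.

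Calr had the largest difference of any member between KI and WT cells. At 48 hr it was 484.7, 477.4 and 465.6 in STAT5B WT cells and 276.9, 257.9 and 256.1 in KI cells, a fold of 0.554 (log2 fold change −0.85 ± 0.11, adjusted p = 4.4e-08). STAT5A cells had 420.9, 498.3 and 435 in WT cells and 341.7, 319.9 and 332.8 in KI cells (−0.45 ± 0.11). All KI libraries lay below all WT libraries of their line. Erap1 was lower by 0.45 ± 0.09 and 0.24 ± 0.09. B2m (0.14 ± 0.19 and 0.03 ± 0.19), Tap2 (0.18 ± 0.12 and 0.16 ± 0.12) and Tapbp (0.04 ± 0.10 and 0.08 ± 0.10) did not pass in either line.

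**Figure D3:**
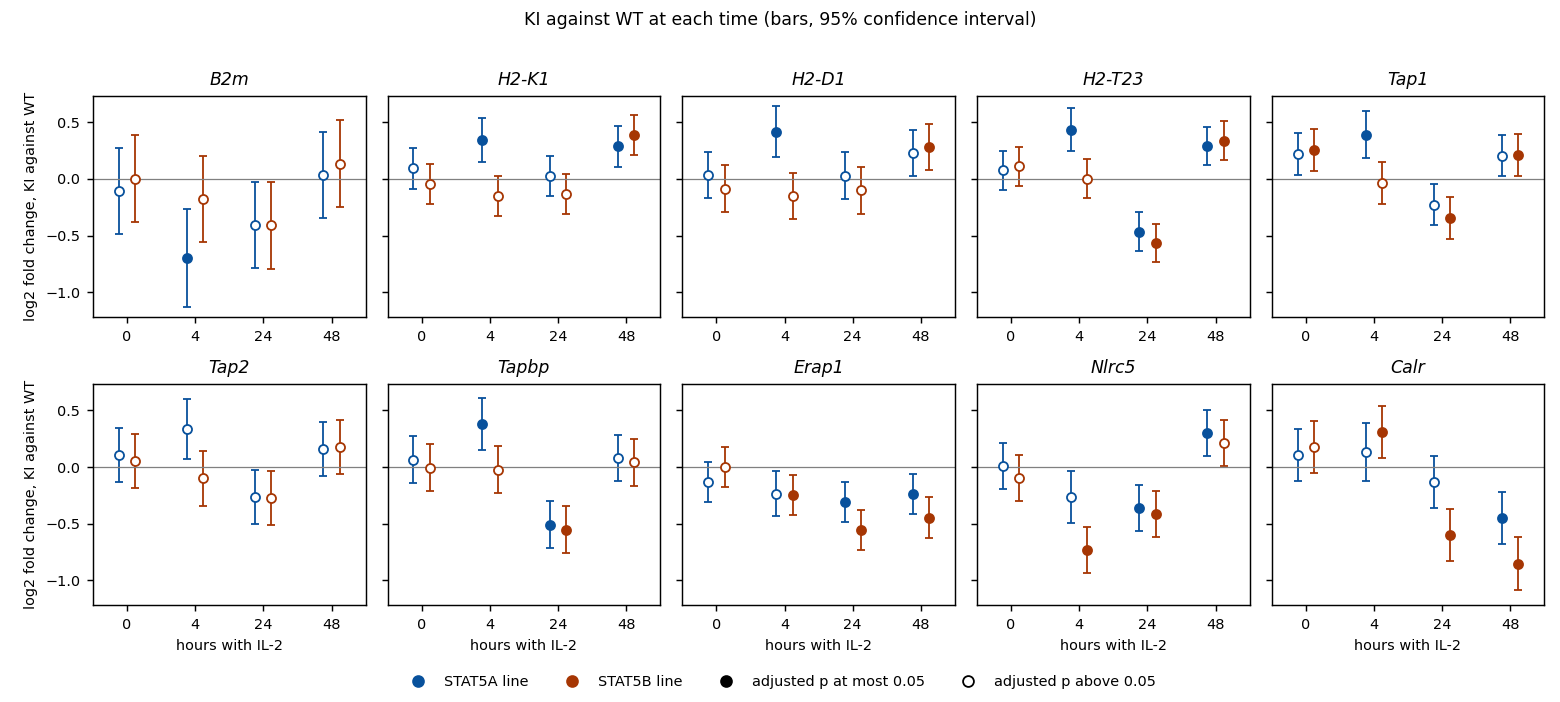
Log2 fold change of KI against WT cells (y axis, bars are 95% confidence intervals) for each of the 10 genes at 0, 4, 24 and 48 hr with IL-2 (x axis), STAT5A and STAT5B lines in 2 colors, filled where the adjusted p was at most 0.05. H2-T23 is below 0 at 24 hr (−0.57 and −0.46) and above 0 at 48 hr (0.34 and 0.29), Nlrc5 is lowest at 4 hr in the STAT5B line (−0.73), and Calr is lowest at 48 hr in both lines.

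The balance of light to heavy chain transcripts can be read from the ratio of B2m to the sum of H2-K1 and H2-D1, which gives a description with no test. It was 0.888 to 0.939 in STAT5B WT cells at 0 hr and 1.246 to 1.278 at 48 hr, where STAT5B KI cells had 1.06 to 1.12. STAT5A cells had 1.26 to 1.43 in WT cells and 1.13 to 1.17 in KI cells at 48 hr. At 24 hr the KI cells of both lines were also below WT cells, 0.942 to 1.01 against 1.16 to 1.27 (STAT5B) and 0.962 to 1.12 against 1.31 to 1.51 (STAT5A). STAT5A KI cells were already below WT cells at 0 hr (0.875 to 0.924 against 1.001 to 1.053). They were so at 4 hr as well (0.986 to 1.012 against 1.097 to 5.313). In the STAT5B line the genotypes overlapped at 0 hr (KI 0.906 to 0.996) and at 4 hr (KI 0.905 to 0.941, WT 0.929 to 0.959).

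The change from 0 to 48 hr differed between KI and WT cells for 4 members in the STAT5B line, where 49.4% of all genes passed: Calr (−1.03 ± 0.16), Erap1 (−0.45 ± 0.12), H2-K1 (0.43 ± 0.12) and H2-D1 (0.37 ± 0.14). In WT cells of that line H2-K1 and H2-D1 fell over 48 hr, by 0.45 and 0.54, and their KI values at 48 hr (means 1710 and 1211) were nearer those at 0 hr (1738 and 1361). In the STAT5A line only Calr passed (−0.55 ± 0.16), where 28% of all genes did, and it did not without KI replicate 1 at 0 hr (−0.43, adjusted p = 0.052). The KI effects of the 2 lines were then set against each other. At 24 hr Calr was lower in STAT5B KI cells by more than in STAT5A KI cells (difference −0.47 ± 0.16, adjusted p = 0.044), where 14.1% of all genes passed, and that call was lost with DESeq2 and without any 1 of 11 of the 12 libraries. At 0 and 48 hr 0 members passed by edgeR's test (0.193% and 11% of all genes did), and the difference for Calr at 48 hr was −0.41 ± 0.16 (adjusted p = 0.099). At an unadjusted p under 0.05, 0 members were below the mark at 0 hr and 1, Calr, at 48 hr, and DESeq2 passed 0 at both. For H2-K1, H2-T23 and Nlrc5 at 48 hr the 95% confidence intervals of the difference between lines were −0.15 to 0.35, −0.19 to 0.29 and −0.38 to 0.20. At 4 hr 5 members passed (H2-D1, H2-K1, Nlrc5, H2-T23 and Tap1, −0.57 to −0.43; 10.9% of all genes), and this rests on the uneven STAT5A libraries. Without replicate 2 of the STAT5A WT cells 2 passed, H2-D1 (−0.34) and H2-K1 (−0.31).

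Genes upstream and downstream of the 10 were grouped in lists. The counts of each list stand beside those of all genes, of which 24.1% passed as higher and 26.3% as lower at 24 hr in the STAT5B line, and 9.49% and 9.01% in the STAT5A line. At 48 hr 33.1% and 30.5% did for STAT5B, and 21.5% and 22.8% for STAT5A. Among 14 inputs from interferon to class I, Ifng, the gene of interferon gamma, fell the most in KI cells. Its levels at 24 hr were 69.2, 69.5 and 43.1 in STAT5B WT cells and 4.58, 4.16 and 3.45 in STAT5B KI cells. In the STAT5A line Ifng was 16.4, 26.3 and 64.4 in WT cells and 6.18, 3.33 and 3.27 in KI cells, so the groups did not overlap in either line. The log2 fold changes were −3.90 ± 0.37 (STAT5B) and −3.07 ± 0.36 (STAT5A) at 24 hr, and −3.11 ± 0.35 and −2.67 ± 0.34 at 48 hr. Irf1, whose product acts on class I promoters, was lower at 24 hr by 0.91 ± 0.13 and 0.69 ± 0.13 in the STAT5B and STAT5A lines, and so was Stat2 (by 0.67 ± 0.12 and 0.83 ± 0.12). At 48 hr Stat2 and Irf1 did not pass in either line, Ifng was still lower, and Irf9 was higher (0.85 ± 0.10 and 0.53 ± 0.10). Socs1, an IL-2-induced inhibitor of cytokine receptors, was lower in STAT5B KI cells at 4 hr (−1.42 ± 0.23) and 24 hr (−1.63 ± 0.23). Ifngr1, a chain of the interferon gamma receptor, was lower at the same times (−0.68 ± 0.13 and −0.51 ± 0.13). Over the list, 3 genes rose and 6 fell at 24 hr in the STAT5B line, 1 rose and 4 fell in the STAT5A line, and at 48 hr 6 rose and 3 fell, and 5 rose and 1 fell.

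The immunoproteasome, which cuts the peptides that class I prefers, and the proteasome regulator PA28 (Psme1 and Psme2) behaved like the loading genes at 24 hr. All 5 genes (Psmb8, Psmb9, Psmb10, Psme1 and Psme2) rose with IL-2 in WT cells of both lines at 24 hr, with median log2 fold changes of 1.247 (STAT5A) and 1.06 (STAT5B). In STAT5B KI cells at 24 hr all 5 were lower, from −0.52 ± 0.13 (Psmb9) to −0.86 ± 0.12 (Psmb10), and in STAT5A KI cells 3 were (Psmb8, Psmb10 and Psme2, −0.31 to −0.36). At 48 hr 3 were lower in the STAT5B line (Psmb8 −0.45 ± 0.11, Psmb10 −0.41 ± 0.12 and Psme2 −0.38 ± 0.08) and 0 in the STAT5A line by edgeR's test, where 1, Psme2 (−0.17 ± 0.08), had an unadjusted p under 0.05. The constitutive subunits that Psmb8, Psmb9 and Psmb10 replace are Psmb5, Psmb6 and Psmb7. They were all lower at 48 hr, by 0.98 to 1.19 in the STAT5B line and by 0.54 to 0.76 in the STAT5A line. Psmb9 and Tap1 lie head to head, and their promoter windows overlap. Tap1 was higher in STAT5B KI cells at 48 hr (0.21 ± 0.09), and Psmb9 was −0.06 ± 0.13.

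Of 12 further loading factors and chaperones, 11 were lower in STAT5B KI cells at 48 hr and 9 in STAT5A KI cells, with 0 higher in either, where 30.5% and 22.8% of all genes passed as lower, and the median was −0.86 and −0.48. The lowest were Sdf2l1 (−1.70 ± 0.20 in the STAT5B line) and Hspa5, the ER chaperone BiP (−1.33 ± 0.12), and the least changed of those that passed were Uggt1 (−0.19 ± 0.05) and Ganab (−0.35 ± 0.11). Tapbpl, the tapasin-like editor, was lower at 24 hr (−0.43 ± 0.10 and −0.41 ± 0.10) and not at 48 hr (−0.01 ± 0.10 and 0.04 ± 0.10), which is also what Tapbp showed. Among 7 listed peptidases, not all of them cytosolic, 5 were lower and 1, Lnpep (0.39 ± 0.13), higher in STAT5B KI cells at 48 hr. The lowest were Thop1 (−2.14 ± 0.15), which destroys peptides in the cytosol, and Lap3 (−1.72 ± 0.10), and Nrd1 was −0.28 ± 0.07.

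Of 19 other class I and class I-like heavy chains, 12 were higher and 0 lower in STAT5B KI cells at 48 hr, and 13 and 0 in STAT5A KI cells, where 33.1% and 21.5% of all genes passed as higher, with medians of 0.44 and 0.37. The highest were H2-M2 (3.07 ± 0.47) and Cd1d1 (1.67 ± 0.10), which presents lipids, and the lowest of those that passed were H2-T10 (0.29 ± 0.06) and H2-Q7 (0.38 ± 0.10). In STAT5B WT cells 12 of the 19 fell over 48 hr with IL-2 (36.8% of all genes did), the direction of H2-K1 and H2-D1. Rows for H2-Q6 and H2-Q8, and for H2-T9 and H2-T22, gave nearly the same values, and each is uncertain. Of the 8 genes of the complex on the S, X and Y boxes, 3 were higher and 4 lower in STAT5B KI cells at 48 hr, where 33.1% and 30.5% of all genes were. Rfxank (0.90 ± 0.10) and Rfx5 (0.57 ± 0.08), subunits of the RFX complex on the X box, were higher, and Atf1 (−0.67 ± 0.07) and Nfyc (−0.40 ± 0.06), a subunit of NF-Y on the Y box, were lower. These lists are read as counts and medians, and no set was tested against others.

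**Figure D4:**
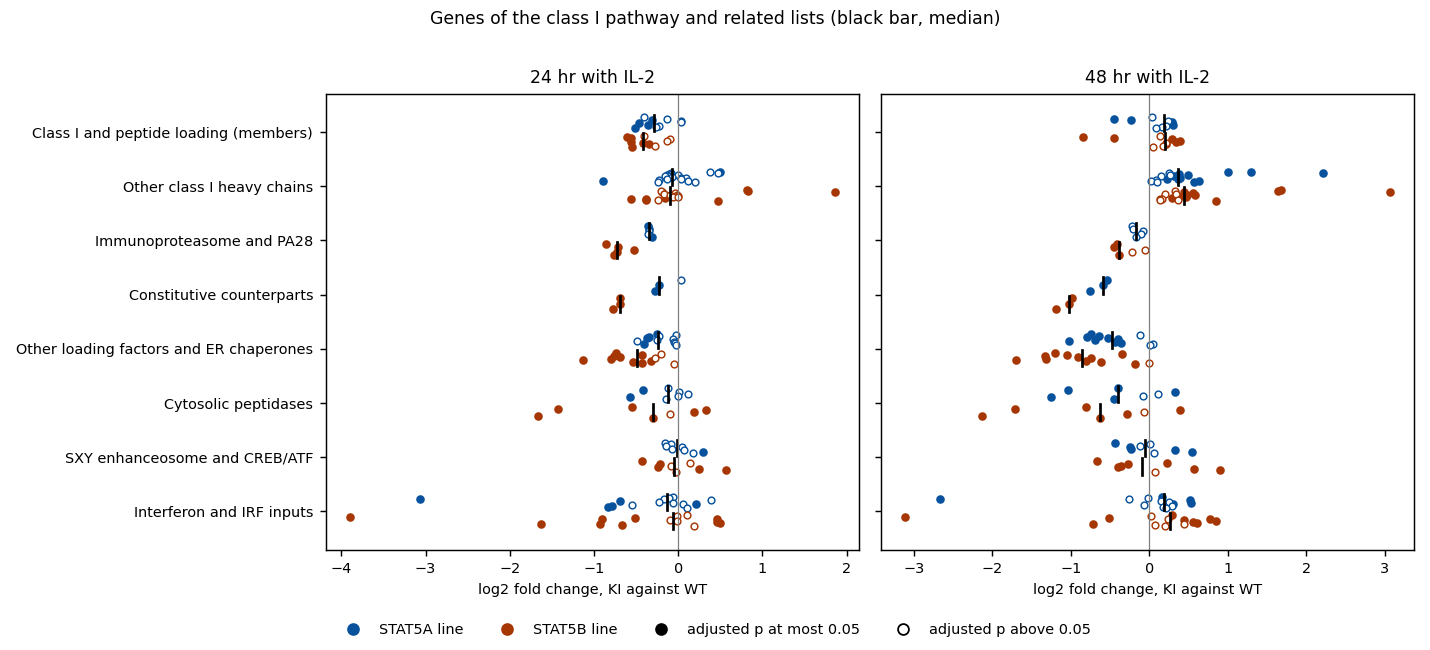
Log2 fold change of KI against WT cells (x axis) for each gene of the class I members and 7 related lists (rows) at 24 hr (left) and 48 hr (right), STAT5A and STAT5B lines in 2 colors, filled where the adjusted p was at most 0.05, with a black bar at each median. At 24 hr the medians of the members and of the immunoproteasome with PA28 lie to the left of 0 in both lines (−0.29 and −0.41, and −0.35 and −0.73). At 48 hr that of the other class I heavy chains lies to the right (0.37 and 0.44) and that of the chaperones to the left (−0.48 and −0.86).

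The cells had been enriched by depletion of other cell types, and RNA of other cells was present and differed between genotypes. The 7 CD8+ T cell markers summed to 1451 to 2587 over the libraries, with Cd8b1 the most abundant. They were lower in STAT5B KI than WT cells at 0 hr (0.765 times) and higher at 48 hr (1.35 times; 1.31 times in the STAT5A line), when 6 of the 7 passed as higher in each line, Cd8b1 by 0.73 ± 0.09 and Cd3g by 0.51 ± 0.07 in the STAT5B line. The 8 B cell markers summed to 16.8 in STAT5B WT and 158.8 in KI cells at 48 hr (group means), 9.46 times as much, with Cd79a the most abundant (3.7 and 55.1). STAT5A cells had B cell sums of 37.3 (WT) and 131.3 to 157.8 (KI). All 8 passed as higher in both lines at 24 and 48 hr. Of all genes, 24.1% and 33.1% passed as higher at these times in the STAT5B line. In the STAT5A line 9.49% and 21.5% did. The 11 myeloid markers found in the files, of 12 listed, summed to 16.4 and 150 at 48 hr in the STAT5B line and 25.8 and 86.6 in the STAT5A line, with Tyrobp the most abundant, and the 4 CD4+ T cell markers to 4.9 and 21.4, and 6.54 and 16.4, with Cd4 leading. The 6 erythroid markers, led by Hbb-bs, were higher in STAT5B KI cells at every time (102.6 and 904.4 at 0 hr, 8.04 and 199.6 at 48 hr), and 0 of them passed in the STAT5A line by edgeR's test, where at 48 hr 3 (Hba-a1, Hba-a2 and Hbb-bs) had an unadjusted p under 0.05. The 6 NK cell markers, led by Eomes, which CD8+ T cells also express, were lower in KI cells in sum at 48 hr (88.7 against 133.6, and 108.5 against 175.4). Eomes itself was 40.9 against 82.1 and 32.8 against 83.5 in the STAT5B and STAT5A lines. The sum therefore does not stand for NK cells alone.

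The class II genes, which belong to B cells and myeloid cells and share the X and Y boxes with class I, moved with those markers. All 10 were higher in KI cells of both lines at 0 and 4 hr, and 9 were at 24 and 48 hr. The exception was H2-DMa, which was lower at 24 hr (−0.41 ± 0.15 and −0.35 ± 0.15 for STAT5A and STAT5B) and did not pass at 48 hr. Of all genes, 3.44% (0 hr) and 24.6% (4 hr) passed in either direction in the STAT5A line. In the STAT5B line 22.9% and 27.3% did. At 24 and 48 hr 9.49% and 21.5% (STAT5A) and 24.1% and 33.1% (STAT5B) passed as higher. H2-Eb1 and H2-Ab1 were higher by 3.35 ± 0.26 and 3.31 ± 0.26 at 48 hr in the STAT5B line. The sum of the list fell with time in WT cells, from 2648 at 0 hr to 150.4 at 48 hr in the STAT5B line. B cells and myeloid cells express class I too. At 48 hr these markers were higher in KI cells, as H2-K1 and H2-T23 were in both lines, while Calr and Erap1 were lower and B2m, Tap2 and Tapbp did not pass. At 24 hr the same markers were higher in KI cells (6.34 times for B cells in the STAT5B line). At that time H2-T23, Tapbp and Nlrc5 were lower in both lines, and Tap1 was lower in the STAT5B line. The part of other cells in the class I differences was not tested. In bulk samples, fewer cells of a type and less RNA per cell cannot be told apart. The share of mapped reads on transcripts was also lower in STAT5B KI than WT cells, at 24 hr (69.9% to 72.5%, and 77.9% to 80%) and at 48 hr (72.6% to 78.5%, and 83.2% to 84.4%). In the STAT5A line it was 77.7% to 80.6% in KI and 80.5% to 84.1% in WT cells at 48 hr. It was not lower there at 24 hr (75.9% to 76.9%, and 74.2% to 76%). The part of this share was not tested.

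**Figure D5:**
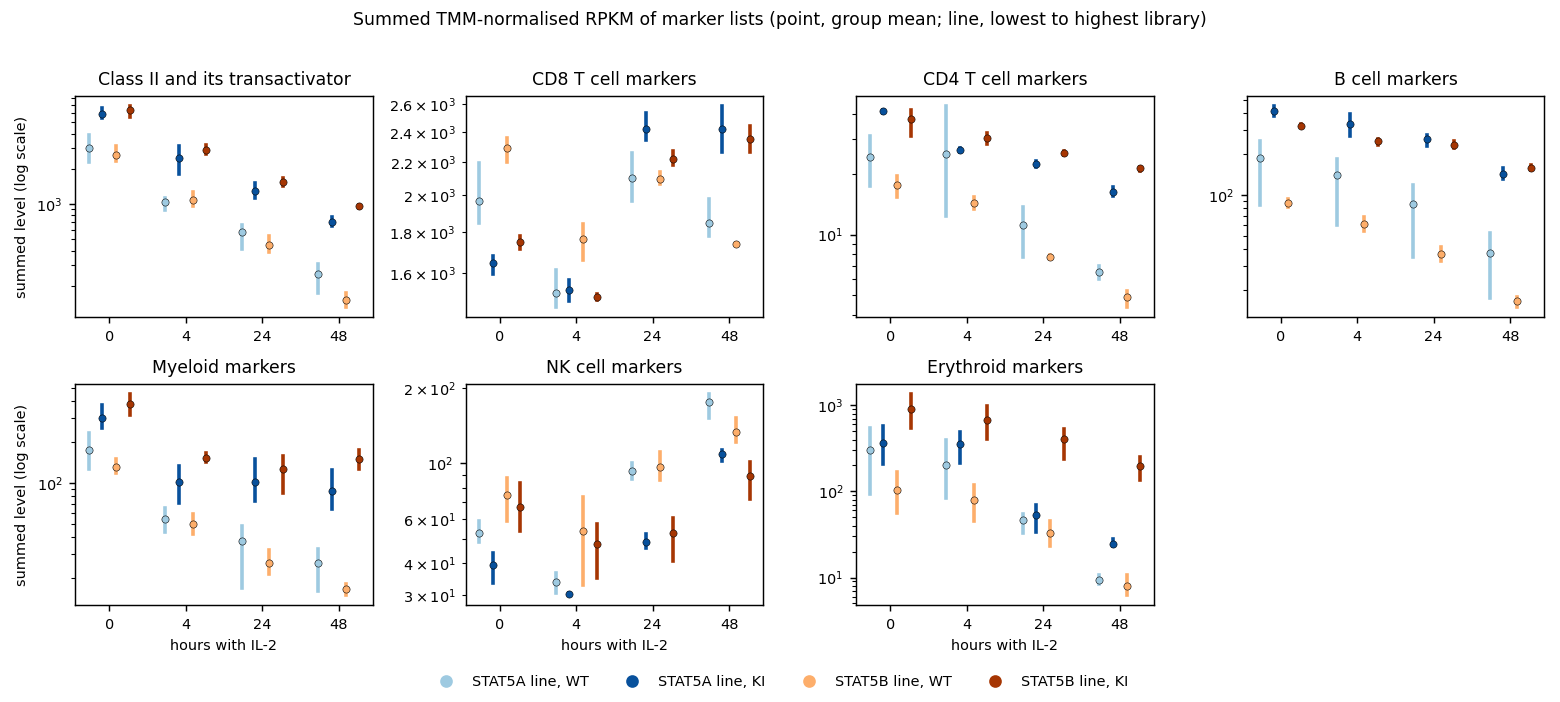
Summed TMM-normalised RPKM (y axis, log scale) of 7 marker lists against hours with IL-2 (x axis), with a point at the mean of each group and a line from its lowest to its highest library, colored by line and genotype. The B cell, myeloid, CD4+ T cell and class II sums fall from 0 to 48 hr in WT cells and are higher in KI than in WT cells at 24 and 48 hr in both lines, and the erythroid sum of STAT5B KI cells lies above those of all other groups at 24 and 48 hr.

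How the members moved among themselves was described by Pearson's r of log2 CPM (counts scaled to library size) over the 47 libraries, which share groups, depth and scaling, so that r is a description. Tap1, Tap2 and Tapbp were the tightest set (0.88 to 0.93), and each followed Nlrc5 (0.75 to 0.79). H2-K1 and H2-D1 followed each other (0.78) and not the loading genes (H2-K1 with Tap1 0.14). H2-T23 went with Tap2 (0.86), not with H2-K1 (0.14). B2m with Tapbp was 0.11, and 0.78 without the STAT5A WT 4 hr library that stands apart, so B2m went with the loading genes once that library was left out. Calr had its highest r with Erap1 (0.46) and its lowest with H2-K1 (−0.53). Among 8470 tested genes with a mean level of at least 5, those most like Tap1 included Tapbp (0.93), Oas1b (0.88), Idnk (0.88) and Tap2 (0.88). The 5 most like Nlrc5 were Asb13 (0.90), Samhd1 (0.88), Armc8 (0.88), Gvin1 (0.87) and Gm4070 (0.87), and the 5 most like H2-K1 were Rabac1 (0.89), Ppox (0.89), H2-Q9 (0.89), H2-Q7 (0.89) and Vps11 (0.88).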

How the data were processed

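RNA-seq of 48 libraries of splenic CD8+ T cells was used. The authors aligned 50 bp single-end reads to mm10 with TopHat2 2.0.11 (Bowtie2 2.2.6, SAMtools 0.1.8 and bedtools 2.25.0 are also named in the submitters' processing notes), kept uniquely mapped reads and deposited raw read counts per RefSeq transcript. The deposited RPKM values were the authors' own, scaled by mapped reads and transcript length, and were used in an alternative. The counter and its use of strand are not given in the sources used here. The longest transcript was taken for each symbol, 1 library was left out as described above, and genes were kept by filterByExpr (minimum count 10), which left 15566. Counts were fitted with edgeR 4.0.16 in R 4.3.3 (TMM, quasi-likelihood test, 1 model of 16 groups, Benjamini-Hochberg adjustment), and 95% confidence intervals came from the SE. Alternatives were DESeq2 1.42.0, limma 3.58.1 on log2(RPKM + 1), DESeq2 size factors, no filter, all 48 libraries, only the groups compared, a replicate block, the transcript with the highest count, and each library left out in turn. A further one left out both STAT5A libraries that stand apart, and was chosen after seeing the data. The fit was tested on counts simulated for KI against WT at 48 hr in the STAT5B line. It recovered 10% of 50 genes changed by a fold of 1.25, 78% at 1.5 and 96% at 2. A gene that did not pass may therefore still differ by a small fold.

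The genes, lists and tests were chosen with earlier results of these data known. List examples named are the 2 highest and 2 lowest that passed, and other genes named were chosen after their values were seen. Deviations of same-numbered samples were correlated most clearly for IL-2 in STAT5A WT cells, at 24 hr (0.206, 0.273 and 0.419) and 48 hr (0.166, 0.117 and 0.192). They were smaller in STAT5B WT cells at 24 hr (0.142, 0.0526 and 0.123) and mixed in STAT5A WT cells at 4 hr (−0.226, 0.259 and 0.426). Whether the samples of other comparisons were paired is not known. A control IgG ChIP sample was not analysed here. Values of some listed genes are not reported here.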

Additional observations from a re-analysis of the deposited data

Results flagged for a closer look

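The change from 0 to 48 hr with IL-2 differed between KI and WT cells, by the interaction term in edgeR's quasi-likelihood test, for Calr in both lines (−0.55 for STAT5A and −1.03 for STAT5B) and, in the STAT5B line, for Erap1 (−0.45), H2-K1 (0.43) and H2-D1 (0.37). The H2-D1 difference no longer passed with all 48 libraries, with no filter on low counts or with limma, and it was lost without any 1 of 7 of the 12 libraries.

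The KI effect at 4 hr differed between the STAT5B and STAT5A lines for H2-D1 (−0.57), H2-K1 (−0.49), Nlrc5 (−0.46), H2-T23 (−0.43) and Tap1 (−0.43). These rest on 2 STAT5A KI libraries and on the STAT5A WT library that stands apart, 0 of the 10 genes passed when only these groups were fitted, and without that WT library H2-D1 (−0.34) and H2-K1 (−0.31) were the 2 that passed. At 24 hr the KI effect on Calr differed between the lines by −0.47, and this too was lost in most of the alternatives that left out a library.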

How the results depend on the processing

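Over 3340 log2 fold changes of the 10 genes under alternatives, single libraries left out included, 3015 kept their side of the threshold (216 of them, which passed in neither fit, with the other sign), 220 no longer passed, 99 passed newly and 6 reversed. The reversed values were Tap2 with IL-2 at 4 hr in the STAT5A line (0.22 without replicate 2 of the WT cells at 4 hr, 0.33 without both libraries that stand apart) and, for KI at 4 hr in that line, B2m (0.03 in both of these fits), H2-K1 (−0.09) and H2-D1 (−0.03) with all 48 libraries. Leaving out 1 library at a time moved the first from −0.14 to 0.22 and B2m from −1.03 to 0.03. The number of genes of 10 that passed moved as follows, and the cause was not tested. With all 48 libraries it was 1 for IL-2 at 4 hr (STAT5B), 2, 1, 0, 1 and 2 for KI at 24 and 48 hr (STAT5A) and at 0, 4 and 48 hr (STAT5B), 1 for the 48 hr response (STAT5B) and 0 for the line difference at 4 and 24 hr. With only the groups compared it was 2 for IL-2 at 4 hr, 0, 7 and 8 for KI at 4, 24 and 48 hr and 2 for the 48 hr response (all STAT5A), and 0 and 2 for the line difference at 4 and 48 hr. With limma it was 1 and 2 for KI at 24 and 48 hr (STAT5A), 0 at 0 hr and 2 for the 48 hr response (STAT5B), and 0 for the line difference at 4 hr. Without both libraries that stand apart it was 7 and 8 for KI at 24 and 48 hr (STAT5A), 6 at 4 hr (STAT5B), 3 for the 48 hr response (STAT5A), and 2 and 1 for the line difference at 4 and 48 hr. With no filter it was 0 for KI at 0 hr (STAT5B) and 2 for the line difference at 4 hr. With DESeq2 size factors the line difference gave 3 at 4 hr and 0 at 24 hr, with the transcript of the highest count 2 and 0, and with DESeq2 0 at 24 hr. Leaving out 1 library at a time gave, for IL-2 at 4, 24 and 48 hr, 6 to 8, 6 to 6 and 8 to 9 (STAT5A) and 3 to 4, 6 to 6 and 6 to 7 (STAT5B); for KI at 0, 4, 24 and 48 hr, 0 to 0, 2 to 9, 2 to 5 and 3 to 5 (STAT5A) and 0 to 0, 1 to 2, 6 to 7 and 4 to 5 (STAT5B); for the 48 hr response 0 to 1 and 3 to 4; and for the line difference 0 to 0, 0 to 8, 0 to 1 and 0 to 0. The replicate block lost no call, and for IL-2 at 24 and 48 hr in STAT5A WT cells it gave 6 and 9 genes, as without it. The limma fit shifted the median of all genes by up to 0.364. Group sizes of 2 or 3 libraries limit the precision, and intervals cover the spread between these libraries only.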
